A study of Mus musculus with 2 samples.

Results

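The genes described here carry vitamin A into cells and turn it into retinoic acid. All 9 genes of the set, named for these steps, were found among the 24346 gene symbols measured by RNA-seq in whole omentum. They are the retinol carrier Rbp4, the retinol uptake receptor Stra6, the retinol-esterifying enzyme Lrat, the retinol dehydrogenases Rdh10 and Dhrs9, the retinaldehyde reductase Dhrs3 and the retinaldehyde dehydrogenases Aldh1a1, Aldh1a2 and Aldh1a3. The rule that defines the set names genes by function and uses no measured value, although earlier results of these data were known when it was chosen. The omentum is a sheet of visceral fat that carries milky spots, which are clusters of lymphocytes, macrophages and stromal cells under the mesothelium.

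Each genotype, WT and Postn-DTR, gave 1 library, and both genotypes were given diphtheria toxin (DT) 5 days before the tissue was taken. Postn-DTR mice are heterozygous for a DT receptor cassette placed in the first coding exon of Postn, in a C57BL/6 background, so that cells using the Postn promoter are killed by DT. The targeted cells are Aldh1a2+ fibroblastic reticular cells (FRCs) of the omentum, but Postn is also used by mesenchymal cells of other organs. The paper reports that DT also partly depleted another FRC population of the omentum. No library from mice without DT was analysed here. The age and sex of the mice, and whether a library came from 1 mouse or from a pool, are not given in the sources used here.

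Retinol travels in blood bound to RBP4 and can enter cells through STRA6. Inside the cell it is stored as esters made by LRAT, or oxidised to retinaldehyde by dehydrogenases such as RDH10, a step that DHRS3 runs backwards. RDH10 and DHRS3 are known to activate each other. The ALDH1A enzymes then oxidise retinaldehyde to retinoic acid, which binds nuclear receptors on DNA. The omentum is known as a tissue rich in retinoic acid.

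The deposited values are FPKM, fragment numbers divided by transcript length and sequencing depth, so that levels of different genes can be set side by side. With 1 library per genotype there was no spread between replicates and no test, so that every difference stands without a replicate check. Changes are given as the log2(FPKM + 1) of Postn-DTR less that of WT, a scale on which weakly expressed genes move less than their ratio. Ratios of single genes are those of the deposited FPKM. Only genes whose mean over both libraries reached 1 FPKM were compared, and those with a change of 2-fold or more were called lower or higher. In that sense the words rose and fell are used here. The sum of all FPKM was 542190 for WT and 671882 for Postn-DTR, and the depth was estimated from low values at about 23300000 and 24100000 fragments. Intervals given with levels and ratios are 95% exact intervals from reads estimated at this depth. They cover counting error only, not the difference between mice.

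The labels were first checked on the targeted gene and on cell markers. Postn (chromosome 3, 54361109 to 54391037, plus strand, GRCm38) stood at 58.3 FPKM in WT and was 3.61-fold lower, at 16.2, in Postn-DTR. As the cassette sits in Postn, loss of cells and loss of transcript from the altered allele cannot be told apart in this value. Adipocyte and mesothelial markers were high in both libraries, as in Adipoq at 955 and 636 and Upk3b at 212 and 182. Summed FPKM, given here and below as WT and then Postn-DTR, was 360.1 and 978 for 4 macrophage markers, 330.1 and 589 for 3 neutrophil markers, 299.7 and 224 for 3 B cell markers and 47.1 and 18.6 for 3 T cell markers. It was 1064 and 540.3 for 5 fibroblast markers, with changes from -1.80 for Dpt to 0.19 for Pi16, and 178 and 165 for 3 endothelial markers. The 3 intestinal markers summed to 16.7 and 22.6, nearly all of it Lgals4 (16.7 and 22.5). Changes of the neutrophil markers ran from -1.49 for Mpo to 0.99 for S100a8. For 27 pancreatic acinar genes the summed FPKM was 12500 and 21.6, and all 24 of them that were compared fell, so the WT library held far more pancreatic RNA. The part of pancreatic RNA in the values of the 9 genes was not tested. The rescaling given with the counts leaves out the acinar genes, 12500 of the 542190 FPKM in WT, and evens the remaining sums. It takes out no other transcript of pancreatic cells. In whole tissue, fewer cells of a type and less RNA per cell cannot be told apart.

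Of the 9 retinoid genes 8 passed the expression minimum. Rbp4 fell, Stra6 rose, and the other 6 stayed within 2-fold. Lower calls thus made up 1 of 8 and higher calls 1 of 8, where 3.12% of all 13127 genes compared were called lower and 3.88% higher. The changes of the 8 genes reached from -1.68 to 1.13 with a median of -0.05, beside a median of 0.02 for all genes. Changes were below 0 in 4 genes (Rbp4, Dhrs9, Aldh1a2 and Aldh1a3) and above 0 in 4 (Stra6, Rdh10, Dhrs3 and Aldh1a1). With acinar genes left out and the libraries set to equal totals, the median of all genes compared shifted by -0.30, and the split among the 8 became 5 below 0 and 3 above. Over all genes compared, 51.9% were above 0 as deposited and 22.7% at equal totals. The gene that turned was Rdh10, at -0.01. The share of higher genes among all called genes was 55.4% as deposited and 28.0% at equal totals.

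**Figure D1:**
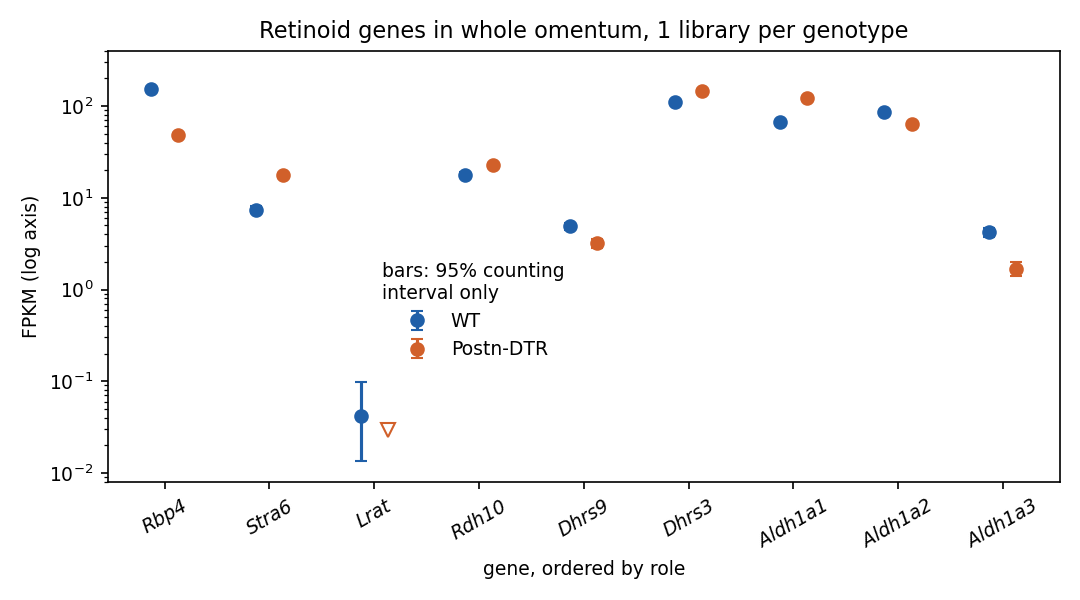
FPKM (log axis) of the 9 retinoid genes in the WT library (blue) and the Postn-DTR library (orange), ordered by role from carrier to dehydrogenase, with bars for the 95% counting interval. Levels span from 155 for Rbp4 in WT to Lrat, which had 0.0417 in WT and was listed at 0 in Postn-DTR (open triangle at the upper counting limit of 0.0297).

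**Figure D2:**
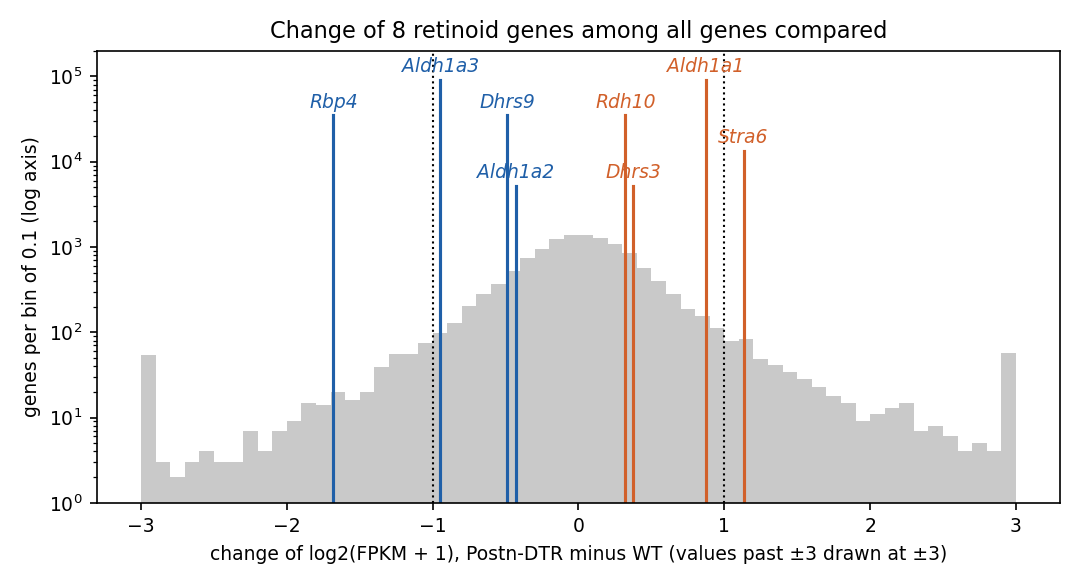
Number of genes (log axis) by their log2(FPKM + 1) difference, Postn-DTR less WT, for all 13127 genes compared (grey), with the 8 retinoid genes that passed the expression minimum as lines and 2-fold as dotted lines. Rbp4 at -1.68 and Stra6 at 1.13 lie outside the dotted lines, Aldh1a3 at -0.95 and Aldh1a1 at 0.87 lie just inside them, and the direction of Rdh10 turns to -0.01 at equal totals.

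Rbp4 and Stra6, the carrier and its receptor, had opposite changes. Rbp4 (chromosome 19, 38116629 to 38125281, minus strand) was the most abundant gene of the set in WT, at 155 FPKM (counting interval 150.3 to 161), and stood at 47.8 (45.0 to 50.7) in Postn-DTR. It was 3.25-fold lower (3.04 to 3.48), and 1.01% of all genes compared had a more negative change. By level it moved from rank 492 to rank 1969 of all symbols. RBP4 in blood comes mainly from liver and is also made by adipocytes. The 3 hepatocyte markers summed to 2.22 and 1.64 FPKM, with Alb at 2.17 and 1.22, Apoa1 at 0.0546 and 0.422 and Apoh listed at 0 in both libraries. Summed FPKM of the 4 adipocyte markers was 1812 and 1437, with changes from -0.76 to 0.21. The part of adipocyte content in the Rbp4 value was not tested.

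Stra6 (chromosome 9, 58063788 to 58153996, plus strand) rose from 7.43 FPKM (6.78 to 8.10) in the WT library to 17.5 (16.5 to 18.5) in the Postn-DTR library. The receptor was 2.35-fold higher (2.12 to 2.62), and 3.04% of all genes compared had a larger increase. Its change of 1.13 dropped below 2-fold, to 0.82, at equal totals, and was 0.85 when 5 was the pseudocount. Stra6 has 14 annotated transcripts, the most of the set, and its read estimate rests on the longest coding one.

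Lrat, the enzyme that stores retinol as esters, was at the edge of detection. It lies on chromosome 3, 82892579 to 82903973, on the minus strand. Its FPKM of 0.0417 in WT corresponded to about 5 reads in a transcript of 5351 bases, with a counting interval of 0.0135 to 0.0973. In Postn-DTR it was listed at 0, which at a floor of 3 reads allows an FPKM of up to 0.0242. The counting intervals of the libraries overlapped, so a difference was not detectable at this depth. Other ester-handling genes were abundant. Dgat1, a triglyceride-forming enzyme that can also esterify retinol, was at 92.9 and 66.3, and the lipase Lipe, which can hydrolyse retinyl esters, at 279 and 139.

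The enzymes of the step between retinol and retinaldehyde were within 2-fold. Dhrs3 (chromosome 4, 144892827 to 144928209, plus strand) was at 110.5 FPKM (108 to 113) in WT and was 1.30-fold higher in Postn-DTR, at 144 (140.4 to 147). Rdh10 (chromosome 1, 16105774 to 16133734, plus strand) had 17.9 (17.0 to 18.9) and 22.6 (21.6 to 23.7), 1.26-fold higher. The reductase was therefore the more abundant of this pair in both libraries, by 6.17-fold in WT and 6.35-fold in Postn-DTR, and the ratio between them moved by 1.03-fold. These changes, 0.38 for Dhrs3 and 0.32 for Rdh10, were near the shift of all genes between scalings, and at equal totals they became 0.04 for Dhrs3 and -0.01 for Rdh10. Dhrs9 (chromosome 2, 69380445 to 69404533, plus strand), which can oxidise retinol, was at 4.91 (4.47 to 5.37) and 3.20 (2.86 to 3.58), 1.53-fold lower.

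Aldh1a2, the gene for which the ablated FRCs are named, was lower but by less than 2-fold. The paper reports loss of these cells by flow cytometry, at an earlier time, and by staining. The value here is RNA of whole tissue at 5 days, which is not a measure of that loss. Aldh1a2 (chromosome 9, 71215789 to 71296243, plus strand) was measured at 85.5 FPKM (82.9 to 88.1) in the WT library and at 63.3 (61.1 to 65.5) in the Postn-DTR library. It was 1.35-fold lower (1.29 to 1.42), and 14.0% of all genes compared had a more negative change. Its change lay between -0.77 and -0.41 under all 7 alternatives. Of these only the scalings could turn its direction, and it stayed below 0 under each. Other markers of these FRCs did not share a direction. Postn was 3.61-fold lower, Ptx3 went from 1.40 to 6.30 and Ace from 46.5 to 56.9. Tek went from 8.96 to 7.61, Adm from 14.2 to 13.1 and Phex, below the expression minimum, from 0.340 to 0.0137. The paper found these markers selective among sorted stromal populations of the omentum, and it also calls TIE2, the product of Tek, an endothelial marker. Which cells gave these transcripts in whole omentum was not tested. Mesothelial cells are another known source of Aldh1a2. Summed FPKM of their 6 markers was 507 and 549, with changes from -1.08 for Lrrn4 to 0.92 for Upk1b. The share of the Aldh1a2 transcripts that came from either cell type was not tested.

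Aldh1a1 and Aldh1a3 went in opposite directions. Aldh1a1 (chromosome 19, 20492715 to 20643465, plus strand) was at 66.6 FPKM (64.4 to 68.9) in WT and at 123 (119.7 to 126) in Postn-DTR. It was 1.84-fold higher (1.77 to 1.92), and 5.00% of all genes compared had a larger increase. Aldh1a3 (chromosome 7, 66390890 to 66427517, minus strand) had 4.19 (3.74 to 4.67) and 1.69 (about 132 reads), 2.48-fold lower (2.02 to 3.06). The ratio of Aldh1a3 passed 2-fold but its change on the log2(FPKM + 1) scale, -0.95, did not. It was -1.26 when the pseudocount was 0.1 and -0.46 when it was 5.

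By the deposited values Aldh1a2 was the most abundant of the 3 retinaldehyde dehydrogenase transcripts in WT and Aldh1a1 in Postn-DTR. The order no longer differed between the libraries when all FPKM of the neighbouring gene Aldh1a7 was added to Aldh1a1, as described next. Aldh1a2 made up 54.7% of the summed FPKM of the 3 genes in WT and 33.7% in Postn-DTR, whereas Aldh1a1 made up 42.6% and 65.4%. Aldh1a3 contributed 2.68% and 0.899%. The ratio of Aldh1a1 to Aldh1a2 was 0.779 in WT and 1.94 in Postn-DTR, a 2.49-fold difference that does not depend on the scaling of a library. The sum itself was 156 in WT and 188 in Postn-DTR, 1.20-fold higher, a log2 difference of 0.26 that became -0.08 at equal totals.

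Aldh1a1 has a close relative beside it on the chromosome, Aldh1a7 (chromosome 19, 20692953 to 20727562, minus strand), with 91.6% identical coding bases. This gene was chosen after its values were seen. Aldh1a7 fell 10.9-fold, from 41.0 to 3.75 FPKM, while Aldh1a1 was 1.84-fold higher. Aldh1a7 thus made up 38.1% of the FPKM of the pair in WT and 2.97% in Postn-DTR. Added together the pair reached 108 and 126 FPKM, 1.18-fold higher, a change of 0.23 that became -0.11 at equal totals. The pair stood above Aldh1a2 in both libraries, at 108 against 85.5 in WT and 126 against 63.3 in Postn-DTR, so the order of Aldh1a1 and Aldh1a2 no longer differed, and the difference in ratio shrank from 2.49-fold to 1.59-fold. The 3 retinaldehyde dehydrogenases and Aldh1a7 together had 197 FPKM in the WT library and 191 in the other. How reads that match both genes were divided is not given in the sources used here, so the separate values of Aldh1a1 and Aldh1a7 carry this uncertainty. The sums above go beyond such reads, as they add all FPKM of Aldh1a7, also that from stretches not found in Aldh1a1. Of the stretches of 50 bases in their longest coding transcripts, 6.54% in Aldh1a1 and 7.49% in Aldh1a7 were found in the other gene. The part of such division in the higher Aldh1a1 value was not tested.

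**Figure D3:**
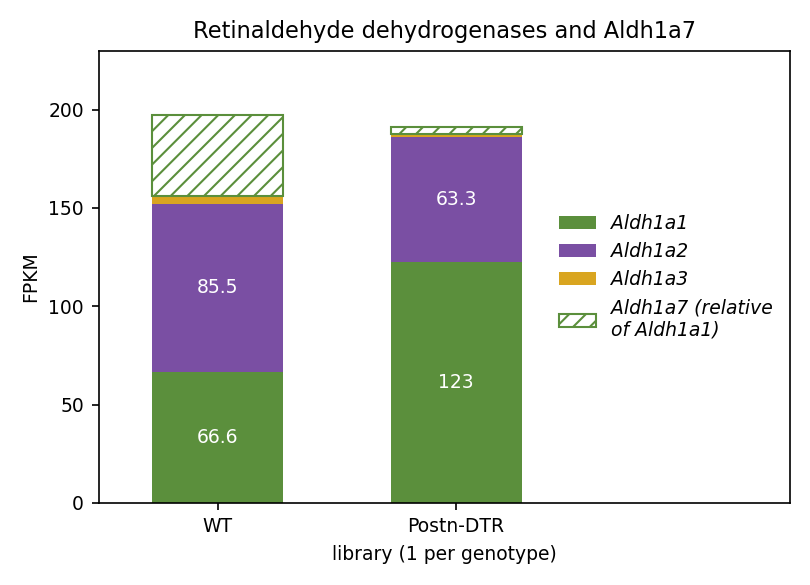
FPKM of Aldh1a1, Aldh1a2 and Aldh1a3 stacked for the WT and Postn-DTR libraries, with Aldh1a7, a close relative of Aldh1a1, hatched on top. The order of the 2 main enzymes is exchanged (85.5 for Aldh1a2 against 66.6 for Aldh1a1 in WT, 63.3 against 123 in Postn-DTR), but Aldh1a1 with Aldh1a7 added, at 108 and 126, lies above Aldh1a2 in both. The full stacks reach 197 and 191.

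The sequences show where reads of these genes can be told apart. In GENCODE M21 on GRCm38 the coding sequences of Aldh1a1 and Aldh1a7 were 91.6% identical over 1503 aligned bases, whereas those of Aldh1a1, Aldh1a2 and Aldh1a3 were 67.4% to 68.5% identical to each other. Of the stretches of 50 bases in the longest coding Aldh1a1 transcript, 6.54% also occurred in Aldh1a7, and 7.49% of those of Aldh1a7 occurred in Aldh1a1. Aldh1a2 shared none with any other gene, nor did Rbp4, Stra6, Lrat, Rdh10 and Dhrs3. Over all transcripts of a gene the share was 3.06% for Aldh1a1, 0.213% for Dhrs9 and 1.15% for Aldh1a3. No exon of the 9 genes overlapped an exon of another gene. The longest run shared by Aldh1a1 and Aldh1a7 was 100 bases, against 20 for Aldh1a1 with Aldh1a2 and 26 for Aldh1a2 with Aldh1a3. It is printed 5′ to 3′ because reads inside it cannot be assigned to either gene. In Aldh1a1 it joins exons 11 and 12 (within chr19:20629063-20630671, plus strand) and in Aldh1a7 exons 8 and 9 (within chr19:20708329-20709491, minus strand).
Aldh1a1 and Aldh1a7, shared run: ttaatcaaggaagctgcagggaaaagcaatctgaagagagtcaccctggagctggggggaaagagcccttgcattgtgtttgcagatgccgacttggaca

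Elsewhere the pair can be separated. The 60 aligned coding bases that differ most lie in exon 7 of Aldh1a1 (chr19:20619973-20620032, plus strand) and exon 4 of Aldh1a7 (chr19:20719252-20719311, minus strand), with 16 differences in capitals.
Aldh1a1: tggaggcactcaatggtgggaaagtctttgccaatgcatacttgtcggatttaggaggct
Aldh1a7: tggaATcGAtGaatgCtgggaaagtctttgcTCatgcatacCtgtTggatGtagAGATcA

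The 3 retinaldehyde dehydrogenases differ even where they are most alike. In the 60 coding bases with the highest identity, 43 were the same in all 3, and capitals mark the bases that differ from Aldh1a2, 11 in Aldh1a1 and 15 in Aldh1a3. The stretch lies in exon 11 of Aldh1a1 (chr19:20629090-20629149, plus strand), exon 8 of Aldh1a2 (chr9:71281640-71281699, plus strand) and exon 8 of Aldh1a3 (chr7:66407808-66407867, minus strand).
Aldh1a1: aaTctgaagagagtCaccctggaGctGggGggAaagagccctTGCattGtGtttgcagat
Aldh1a2: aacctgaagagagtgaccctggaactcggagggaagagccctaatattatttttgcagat
Aldh1a3: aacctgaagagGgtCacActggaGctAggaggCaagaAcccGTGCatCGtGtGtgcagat

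The order of levels within the set differed between the libraries at the top. In WT it was Rbp4, Dhrs3, Aldh1a2, Aldh1a1, Rdh10, Stra6, Dhrs9, Aldh1a3 and Lrat, and the neighbours Dhrs9 and Aldh1a3 had overlapping counting intervals. In Postn-DTR the order was Dhrs3, Aldh1a1, Aldh1a2, Rbp4, Rdh10, Stra6, Dhrs9, Aldh1a3 and Lrat, with no overlap between neighbours. Rbp4 moved from the first to the fourth place and Aldh1a1 from the fourth to the second. With Aldh1a7 added, at 108 FPKM in WT, Aldh1a1 would already stand there above Aldh1a2 (85.5) and next to Dhrs3 at 110.5. The lower part of the order was the same in both.

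**Figure D4:**
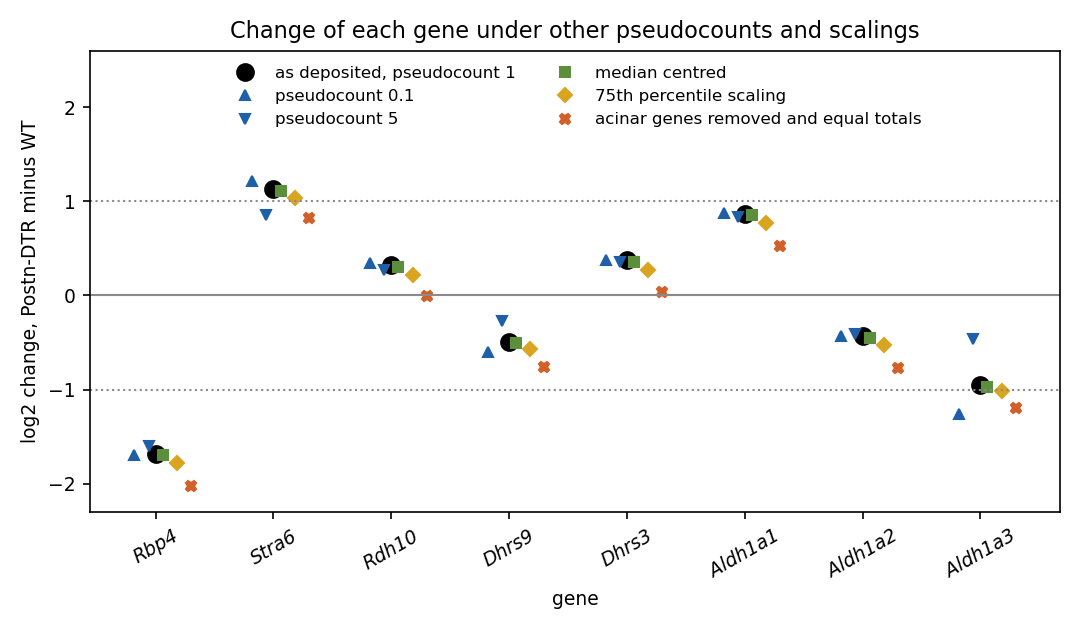
Change of each of the 8 compared genes (log2, Postn-DTR less WT) as deposited with a pseudocount of 1 (black), with other pseudocounts (triangles) and after 3 other scalings (square, diamond, cross), with 2-fold as dotted lines. Equal totals move every gene down, which brings Rdh10 to -0.01 and Dhrs3 to 0.04 and Stra6 to 0.82, while Rbp4 stays between -2.02 and -1.60.

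Other genes of retinol handling were also split in direction. Of 33 such genes 5 were listed at 0 in both libraries and 18 passed the expression minimum. Of the 18, 1 was called lower and 0 higher, beside 3.12% and 3.88% of all genes compared. Changes were below 0 in 9 and above in 9, and the median change was -0.02. Adh1, an alcohol dehydrogenase that oxidises retinol, fell from an FPKM of 56.6 to 27.7, at the edge of the threshold with a change of -1.003. Lipe ended just short of it, at -0.997, and passed it when changes were centred on the median of all genes. Dhrs7, a dehydrogenase of the same family as Dhrs3, was at 124 FPKM in WT with a change of -0.71. Rbp7, a cellular retinol-binding protein gene, was at 17.5 and 12.5, and the retinal reductase genes Rdh11 (12.9 and 9.65) and Rdh14 (12.9 and 15.4) went apart. Pnpla2, the lipase that starts triglyceride breakdown, was at 362 and 495, Adh5 at 54.0 and 77.3, and Dhrs4 at 31.3 and 30.5. Akr1b8 (19.8 and 31.8) and Akr1b10 (24.3 in WT, change -0.27) encode related aldo-keto reductases, and reads shared between them were not examined. At equal totals 12 of the 18 were below 0, beside 10151 of all 13127 genes compared. Lower calls were then 3 of the 18, beside 788 of the 13103 genes left without the acinar genes.

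A further list held receptor, binding, target and breakdown genes of retinoic acid, so it is not a measure of targets alone. Its genes were more often above 0, with 12 of 15 compared genes beside 51.9% of all genes. This split depended on scaling and was 7 of 15 beside 22.7% at equal totals. Of the 15 genes 1 was called lower and 1 higher, beside 3.12% and 3.88% of all genes compared, and the median change was 0.24. Cyp26a1, which encodes a retinoic acid hydroxylase and is induced by its substrate, rose from 0.190, about 7 reads, to 9.33, about 357 reads. It was 49.0-fold higher with a counting interval of 23.7 to 123. Cyp26a1 reached the expression minimum only through its Postn-DTR value, so it could be counted only as higher. Fabp5, a fatty acid-binding protein that also binds retinoic acid, fell from 199.6 to 86.3. Gata6, which retinoic acid induces in peritoneal macrophages, was at 18.6 and 33.1 beside the higher macrophage markers, whose part in it was not tested. The other genes averaging 10 FPKM or more were within 2-fold, with Tgm2 at 183 and 179, Cyp26b1 at 8.87 and 13.1, Rara at 20.8 and 23.9, Rarg at 30.8 and 40.7, Rxra at 39.0 and 43.3, Rxrb at 27.5 and 32.7, Hoxa5 at 18.8 and 26.0 and Itga4 at 9.72 and 12.6.

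**Figure D5:**
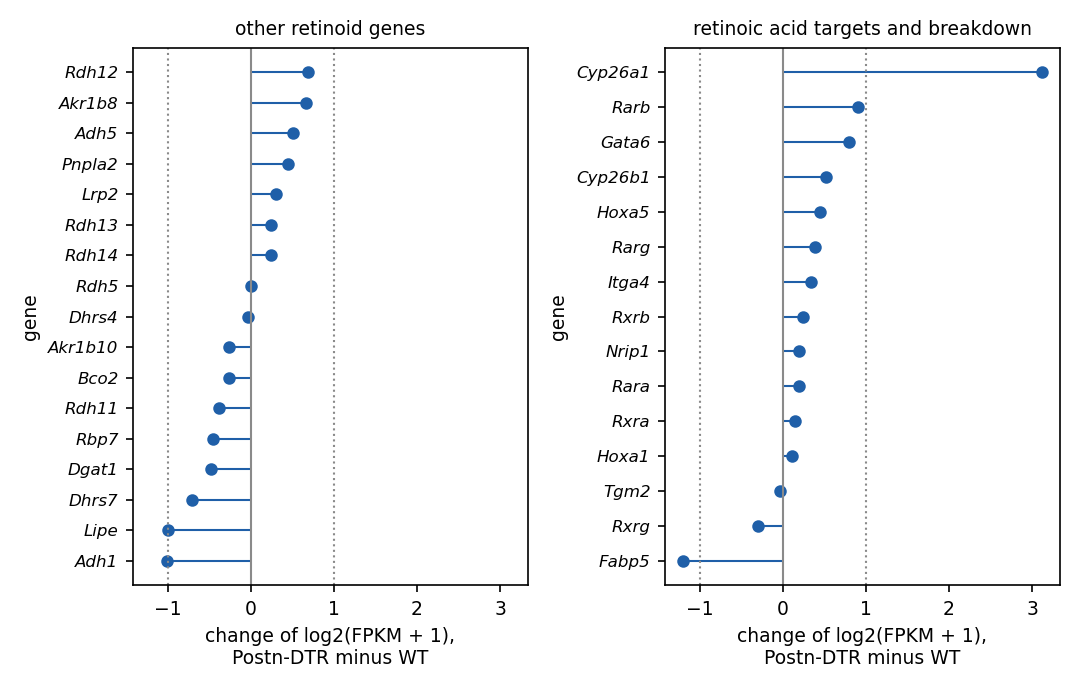
Difference of log2(FPKM + 1), Postn-DTR less WT, with 2-fold as dotted lines. The left side has 17 of the 18 compared genes of retinol handling outside the set. The right side has the 15 compared receptor, binding, target and breakdown genes of retinoic acid. On the left Adh1 reaches the lower line and no gene the upper one, and on the right Cyp26a1 at 3.12 and Fabp5 at -1.20 lie outside the lines.

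Promoter sequences were read to see which of these genes carry the motif bound by retinoic acid receptors near their start. The windows run from 250 bases before to 50 after a RefSeq start on GRCm38.p6. Of the 9 genes 7 had at least 1 window, 14 in all. The receptor motif is a direct repeat of a 6-base core, searched on both strands as AGGTCA or AGTTCA or GGGTCA or GGTTCA with a spacer of 1, 2 or 5 bases. None of the 14 windows held such a repeat, which 0.222%, 0.268% and 0.0974% of all 32851 windows did for the 3 spacers. At these rates a repeat in 14 windows was unlikely from the start, so its absence does not set these genes apart. A single core was present in 4 of the 14 windows, 1 each for Rbp4, Stra6, Dhrs9 and Aldh1a1, and in 43.7% of all windows. Matches describe letters in the window and not binding. The stretches before the start are shown, on the gene's own strand, with the core in capitals, which is on the opposite strand in each.
Rbp4 (chr19:38125349-38125394, minus strand, upstream): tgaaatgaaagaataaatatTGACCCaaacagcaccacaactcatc
Dhrs9 (chr2:69380354-69380399, plus strand, upstream): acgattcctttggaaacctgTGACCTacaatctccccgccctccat
Aldh1a1 (chr19:20601899-20601944, plus strand, upstream of one start and in an intron of longer transcripts): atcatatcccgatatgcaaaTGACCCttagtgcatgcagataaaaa

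As an example of the motif, the full repeat with a spacer of 5 bases is given from the windows of Cyp26a1 and Rarb. Rarb, a retinoic acid receptor gene, was chosen after its values were seen (FPKM of 3.08 and 6.63, change 0.90). The repeat is shown in capitals, on the gene's own strand, and in Cyp26a1 it reads on the opposite strand.
Cyp26a1 (chr19:37697756-37697797, plus strand, upstream): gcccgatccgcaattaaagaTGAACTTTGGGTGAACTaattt
Rarb (chr14:16575513-16575529, minus strand, in an annotated exon): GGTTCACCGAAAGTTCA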

How the data were processed

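RNA was taken from whole omenta, extracted with a miRNeasy kit and made into stranded TruSeq mRNA libraries, per the labels. The authors deposited FPKM, 1 value per gene symbol and library. Submitters' processing notes name TopHat2 2.1.1, Bowtie2 2.2.8, SAMtools 0.1.18, Cuffdiff 2.2.1 and mm10; the annotation used is not given in the sources used here.

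Groups came from the genotype label. Changes were differences of log2(FPKM + 1) for genes averaging 1 FPKM or more, with no test. Positions and transcript lengths came from GENCODE M21 (GRCm38), promoters from RefSeq (GRCm38.p6), where 7 of 9 genes matched. Depth was estimated by finding the denominators and the length correction (200 bases) at which low values of genes with 1 transcript became whole reads. Of 342 such values in WT and 299 in Postn-DTR, 81.3% and 81.6% were within 0.1 of a whole read. Since these values gave the denominators, this is no independent check. Read numbers use the longest coding transcript and are approximate, and the floor was 3 reads. The steps were tested on simulated data. Shared 50-base stretches were counted over all annotated transcripts, except for the 6.54% of Aldh1a1 and the 7.49% of Aldh1a7. Those are shares of the longest coding transcript.

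Members and lists were chosen with earlier results of these data known. Named genes were all 9 members, Postn, markers, and listed genes past 2-fold or averaging 10 FPKM or more. Aldh1a7 and Rarb fall outside this rule and were chosen after their values were seen. One listed gene is counted but not reported here by name. None was named for a like pattern, since over 2 libraries a pattern is 1 ratio. Alternatives covered pseudocounts, filters, scalings and thresholds. Python 3.11.15, pandas 2.3.3 and scipy 1.17.1 were used.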

Additional observations from a re-analysis of the deposited data

How the results depend on the processing

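Of 54 recomputed changes of the 8 compared genes, 53 kept their direction, and the other was Rdh10 at equal totals (-0.01), the setting without acinar genes. Pseudocounts and filters cannot turn a direction, so only the 3 scalings could have done so. Lower calls among the set became 2, Rbp4 and Aldh1a3, when the pseudocount was 0.1, after 75th percentile scaling, at equal totals and at 1.5-fold. Higher calls became 0 when the pseudocount was 5, at equal totals and at 3-fold, and 2, Stra6 and Aldh1a1, at 1.5-fold. The median of the set became 0.35 under a minimum of 10 FPKM, where 6 genes were left, -0.15 after 75th percentile scaling and -0.38 at equal totals. The log2 ratio of the retinaldehyde dehydrogenase sum became 0.16 after 75th percentile scaling, -0.08 at equal totals and -0.04 when Aldh1a7 was included, an alternative chosen after seeing the data.

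For other retinoid genes, lower calls became 2 when the pseudocount was 0.1, centred on the median or after 75th percentile scaling, 0 when it was 5 and at 3-fold, and 3 at equal totals and at 1.5-fold, where higher calls became 2. The list of receptor, binding, target and breakdown genes of retinoic acid also moved. Its higher calls became 2 when the pseudocount was 0.1, 0 under a minimum of 10 FPKM and 3 at 1.5-fold, and its lower calls 0 at 3-fold. Over all genes, the 410 lower and 509 higher became 643 and 642 when the pseudocount was 0.1, 168 and 287 when it was 5, 173 and 303 under a minimum of 10 FPKM, 788 and 307 at equal totals, 1160 and 1294 at 1.5-fold and 153 and 199 at 3-fold. Filters and thresholds move counts by construction, and equal totals lower the Postn-DTR values because their sum was larger. The cause of the other shifts was not tested.

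No paired analysis was possible because each genotype had 1 library, and for the same reason leaving out a library was not an option. One read in a 2 kb transcript was worth about 0.0239 FPKM in WT and 0.0231 in Postn-DTR, which limits statements on Lrat and on Cyp26a1 in WT.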
